A study of Mus musculus with 4 samples.

Results

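The genes described here are 10 components of JAK-STAT signalling and its feedback, Cish, Socs1, Socs2, Socs3, Stat3, Stat5a, Stat5b, Prlr, Il6ra and Il6st, out of 31053 genes counted in mouse brain vascular-associated cells (BVACs). They were picked by symbol, with their levels in CSD and HC libraries already known, so their own values are given as a description and carry no test. BVACs are the cells that magnetic beads against the endothelial surface protein CD31 pulled from digested brain, and their mRNA was counted by 10x Genomics 3′ single-cell sequencing as UMIs, tags that let copies of 1 captured molecule be counted as 1. The animals of both conditions were wild-type male C57BL/6 mice, 12 to 14 weeks old. In chronic social defeat (CSD) a mouse lived for 14 days in the cage of an aggressive CD-1 male behind a perforated divider that was lifted once a day for an encounter. In the home cage (HC) condition a mouse spent the same 14 days in a divided cage, per the study's methods also beside a CD-1 mouse, and the divider was never lifted. The libraries are called CSD 1, CSD 2, HC 1 and HC 2, and cells of 4 mice were pooled in each.

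In JAK-STAT signalling, a cytokine or hormone binds its receptor, Janus kinases (JAKs) on the receptor become active, and STAT proteins are phosphorylated, pair up and switch on genes in the nucleus. Among these genes are those of the CIS and SOCS proteins, which bind the receptors or the kinases and turn the signal down, so that their mRNA is often read as a trace of recent signalling. Prlr encodes the receptor of prolactin, which signals largely through STAT5 and is known to be abundant in the choroid plexus, the epithelium that makes cerebrospinal fluid. Il6ra encodes the receptor that binds interleukin-6, and Il6st encodes gp130, the signalling chain that it shares with the receptors of related cytokines.

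In GRCm38, 4 of the inhibitor and transducer genes lay on chromosome 11. Stat5b (100780731 to 100850724, minus strand), Stat5a (100859351 to 100885169, plus strand) and Stat3 (100885098 to 100939540, minus strand) were neighbours there, and the last 72 bases of Stat5a overlapped the end of Stat3 on the opposite strand. Socs3 lay on the same chromosome at 117966079 to 117970047. Cish lay on chromosome 9 at 107296026 to 107302784, Socs2 on chromosome 10 at 95385362 to 95417180 and Socs1 on chromosome 16 at 10782240 to 10785536. Prlr lay on chromosome 15 at 10177238 to 10349180, Il6ra on chromosome 3 at 89864059 to 89913196 and Il6st on chromosome 13 at 112464070 to 112510086. The predicted gene Gm21973, which overlaps Prlr on its own strand, held 0 UMIs in the cells, Gm17041, opposite Cish, held 2 and Gm42809, opposite Il6ra, held 73.

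STAT dimers bind DNA at pairs of half-sites, and the letters TTCNNNGAA, which read the same on both strands, were searched in the RefSeq promoters (GRCm38.p6, 250 bases before to 50 after each transcript start). Of the 10 genes, 9 had an entry, with 13 promoters. At least 1 match was found in 8.30% of the 32851 promoters in the table and at least 2 in 0.457%. Cish held 2 matches, starting at bases 1 and 12 of its transcript. Socs3 held 1 that began 154 bases before its start, and 1 of the Prlr promoters held 1 that began 110 bases before its start. The RefSeq starts used for these matches lay inside the gene spans given above, not at their ends. No match was found in these windows of Socs1, Stat3, Stat5a, Stat5b, Il6ra or Il6st. A match describes the letters and says nothing about binding in these cells. The sequences around all matches found in promoters of the 10 genes are shown 5′ to 3′ on the strand of each gene, and capitals mark the match.
Cish, chr9:107296654-107296683, plus strand: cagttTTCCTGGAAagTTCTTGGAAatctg
Socs3, chr11:117969502-117969530, minus strand: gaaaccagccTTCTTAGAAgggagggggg
Prlr, chr15:10223786-10223814, plus strand: gcaaaatgagTTCTAGGAAtaagggatat

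The libraries held 28619757 (CSD 1), 30361474 (CSD 2), 27297599 (HC 1) and 30250156 (HC 2) UMIs. Barcodes with at least 500 UMIs, at least 250 genes and at most 25% mitochondrial UMIs were kept as cells, which gave 14415 cells. Marker genes sorted them into 4989 endothelial cells (EC), 4506 microglia, 1485 choroid plexus cells and 527 pericytes. Further classes were 496 arterial smooth muscle cells (SMC), 241 astrocytes, 205 ependymal cells and smaller ones. Of the rest, 945 cells met no class, and 432 met several with the leading class under 2 times the next. Cells that met several classes with a larger lead were kept in the leading class. CSD 2 stood apart from the other libraries. Cells held 32.6% of its UMIs, against 51.8 to 56.8% in the others, it contributed 92 choroid plexus cells against 367 in CSD 1, 290 in HC 1 and 736 in HC 2, and its microglia were deeper, with a median of 4903 UMIs against 1869 to 2689. The choroid plexus cells were the deepest class and differed in depth too, with median UMIs of 19616 (CSD 1), 25506.5 (CSD 2), 28338.5 (HC 1) and 11968.5 (HC 2). Any pair of libraries had at most 9 cell barcodes in common. The choroid plexus class was sorted by 9 markers (Folr1, Kcnj13, Enpp2, Clic6, Kl, Calml4, Sostdc1, Otx2 and Aqp1). In its cells they summed to 19058 CPM (UMIs scaled to 1e+06 UMIs of the class), 10 EC markers to 227 CPM and 8 microglial markers to 48.9 CPM. The same lists sorted the cells, so these sums describe the sorting and are no independent check of the label. Levels below are in CPM, and are compared between classes and libraries for 1 gene at a time, since a 3′ count does not scale with transcript length but differs in yield between genes.

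The feedback inhibitors were spread very differently over the classes, as the plot of levels by class and library shows. Cish, the inhibitor most closely tied to STAT5, had its highest means in T cells and choroid plexus cells. These were 58.8 ± 36.5 CPM in T cells and 29.0 ± 14.8 CPM in choroid plexus cells (SD, n = 4 libraries), and the libraries of these classes overlapped. The T cells were few, 25 (CSD 1), 21 (CSD 2), 18 (HC 1) and 42 (HC 2), and their libraries ran from 35.5 to 113 CPM of Cish. Every library was higher in choroid plexus cells than in EC, where Cish was at 13.02 ± 1.39 CPM. Fibroblasts, microglia, ependymal cells, SMC and pericytes followed with means of 9.89 down to 1.20 CPM and overlapped their neighbours in this order. No Cish UMI was found in astrocytes or oligodendrocyte precursor cells (OPC), where a floor of 3 UMIs per library corresponds to 14.0 to 53.4 CPM in astrocytes. Choroid plexus cells held 71.3% of the 930 Cish UMIs found in cells, against 47.4% of all UMIs in cells.

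**Figure D1:**
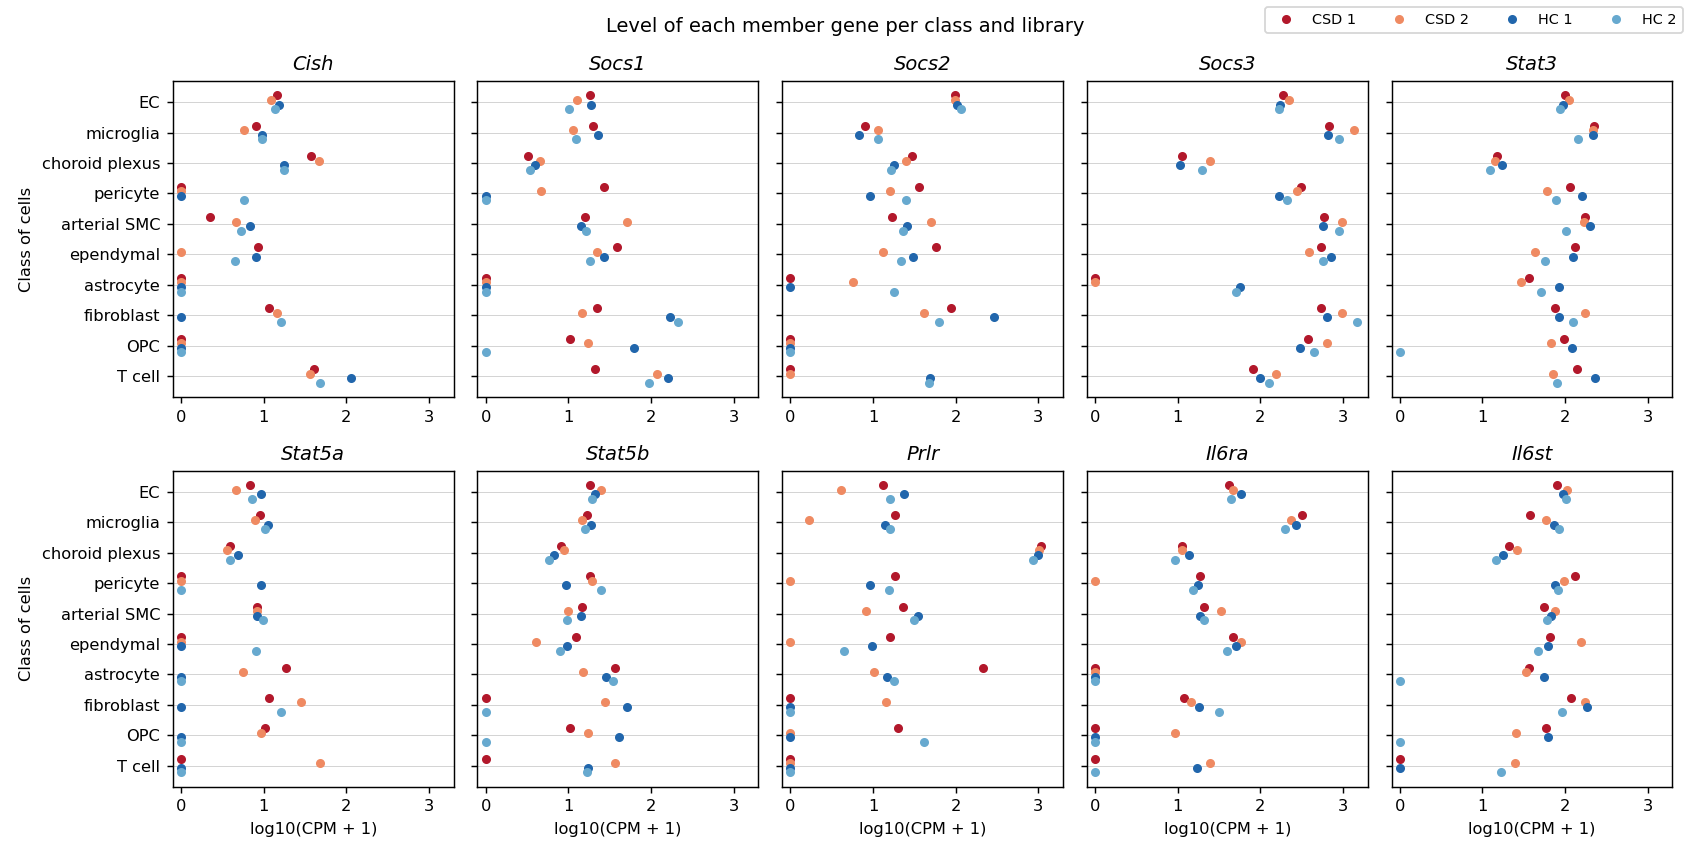
Each panel shows 1 gene, with log10(CPM + 1) on the horizontal axis and the classes of cells on the vertical axis; each point is 1 library (red CSD 1, orange CSD 2, dark blue HC 1, light blue HC 2). Prlr sits near 1000 CPM in choroid plexus cells and far lower elsewhere, Socs3 has its lowest mean in choroid plexus cells, and Il6ra is highest in microglia.

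Socs2, which damps growth hormone and STAT5 signals, was a gene of EC and fibroblasts in these data. EC held 102.7 ± 8.78 CPM (SD, n = 4), and every EC library was above every library of the ependymal cells (29.98 ± 19.5 CPM), the next class. Fibroblasts held 119 ± 113 CPM, a spread as large as their mean. Choroid plexus cells were at 21.1 ± 6.14 CPM and microglia at 8.51 ± 2.49 CPM. Within EC, Socs2 was at 108.5 ± 17.6 CPM in capillary, 56.2 ± 11.9 in arterial and 180 ± 153 in venous cells, and CSD 2 set the spread of the venous value with 400.1 CPM from 23 UMIs. The venous marker Tmem252 was itself higher in EC of CSD (615 and 734 CPM) than of HC (154 and 124 CPM). Its part in the sorting of the venous cells, 18 (CSD 1), 27 (CSD 2), 12 (HC 1) and 13 (HC 2), was not tested.

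Socs3, an inhibitor of gp130 and its kinases that STAT3 induces, was highest in fibroblasts (905 ± 419 CPM), microglia (892 ± 322 CPM) and SMC (760.1 ± 206 CPM; SD, n = 4 libraries each), whose libraries overlapped, and its mean was lowest in choroid plexus cells (15.5 ± 6.84 CPM), which overlapped astrocytes (26.3 ± 30.5 CPM). EC, at 187 ± 23.9 CPM, lay above T cells, at 114 ± 32.4 CPM, in every library. Microglia held 59.8% of all 16568 Socs3 UMIs in cells. Socs1, an inhibitor of interferon and cytokine receptors that binds JAKs, was low and uneven. In fibroblasts it was at 21.5 (CSD 1), 13.5 (CSD 2), 168 (HC 1) and 214 CPM (HC 2), lower in both CSD libraries, from 2, 1, 10 and 14 UMIs in 24, 13, 14 and 33 cells, too few for a comparison. Its means were 98.3 ± 59.3 CPM in T cells, 15.6 ± 5.71 CPM in microglia, 14.0 ± 4.22 CPM in EC and 2.80 ± 0.569 CPM in choroid plexus cells. Over 28 sums (7 classes in 4 libraries) and on log2(CPM + 10), the genes with the pattern most like Socs3 were Btg2 (Pearson r = 0.95), Zfp36 (0.95) and Junb (0.94), which are immediate-early genes that dissociation of tissue is known to induce. For Cish they were Slc31a1 (0.87), Denr (0.86) and Trpv4 (0.85), and for Socs2 they were Tdrp, Paqr5 and Ocln (0.88 each). Sums of 1 library share their depth, so these correlations are descriptions over points that are not independent.

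The STAT genes were less restricted. Stat3, the transducer of gp130 cytokines, was at 200.2 ± 39.2 CPM in microglia, 161 ± 42.7 in SMC and 97.2 ± 10.4 in EC (SD, n = 4), and the libraries of each class overlapped those of the next in the order from microglia to astrocytes. Choroid plexus cells, at 13.7 ± 1.98 CPM, lay below astrocytes, at 49.1 ± 24.2 CPM, in every library. Stat5b was at 19.8 ± 2.81 CPM in EC, 15.6 ± 1.79 in microglia and 6.39 ± 1.36 in choroid plexus cells, and Stat5a at 5.96 ± 1.91, 8.62 ± 1.49 and 3.1 ± 0.585 CPM in the same classes. Both transducers of prolactin receptor signals were therefore detected in choroid plexus cells at low levels, from 161 UMIs of Stat5b and 86 of Stat5a over the 4 libraries.

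Of the receptors, Prlr was the most restricted gene of the list. Choroid plexus cells held 1073 (CSD 1), 1020 (CSD 2), 1004 (HC 1) and 857 CPM (HC 2), and 96.1% of all 27256 Prlr UMIs in cells. The next classes by mean were astrocytes at 63.3 ± 100.2 CPM, where CSD 1 alone held 214 CPM from 12 UMIs, and SMC at 23.5 ± 11.9 CPM. EC held 13.2 ± 8.05 CPM, microglia 11.5 ± 7.44 CPM, and no Prlr UMI was found in T cells. The genes most like Prlr over the 28 sums were Car12 (r = 0.97), Ooep (0.96) and Atp2b3 (0.96). Il6ra was highest in microglia, at 255 ± 52.0 CPM, and every microglial library was above every library of the ependymal cells (47.6 ± 7.87 CPM). EC overlapped these with 46.7 ± 7.77 CPM and lay above every SMC library, and choroid plexus cells held 10.3 ± 1.76 CPM. Il6st differed less between classes. It was at 143 ± 44.9 CPM in fibroblasts, 95.8 ± 24.8 in pericytes, 94.0 ± 10.9 in EC, 62.0 ± 20.2 in microglia and 18.9 ± 4.90 in choroid plexus cells. The first 4 of these overlapped their neighbours, and every microglial library was above every choroid plexus library. Within EC the level of Il6st was 82.6 ± 12.4 CPM in capillary, 120.2 ± 23.0 in arterial and 184 ± 27.5 in venous cells.

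CSD was compared with HC within each class on UMIs summed per library, with edgeR's quasi-likelihood test over all genes that passed a filter on low counts and an adjusted p under 0.05 (Benjamini-Hochberg) as the limit for a call. All 10 genes passed the filter in choroid plexus cells, EC and microglia, 6 in SMC, 4 in ependymal cells, 3 in pericytes and 0 in astrocytes. In choroid plexus cells 0.0782% of the 11506 genes tested were called, 9 genes, all higher in CSD. Cish in choroid plexus cells was 1 of these 9 and no other gene of the 10 was called in any class, which describes how the genes were chosen and is no test of them. The share called was 0.0493% in EC (5 of 10139 genes), 0.0322% in pericytes (1 of 3108), 0.902% in astrocytes (8 of 887), and 0.0% in microglia, SMC and ependymal cells, where 120, 202 and 154 genes were under an unadjusted p of 0.05 and DESeq2 called 1, 0 and 0. Since the genes were chosen with these contrasts known, nothing is read from their count against those shares. An exact permutation test over libraries cannot go below p = 0.33 with 2 against 2.

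In choroid plexus cells Cish was at 36.3 (CSD 1), 46.3 (CSD 2), 16.6 (HC 1) and 16.8 CPM (HC 2), from 273, 105, 134 and 151 UMIs. Both CSD libraries were more than 2 times as high as either HC library, and the HC libraries differed by less than 1 CPM. The fitted log2 fold change was 1.25 ± 0.198 (SE), with a 95% interval of 0.84 to 1.66, or 2.38-fold. It was 1.47 without CSD 1, 1.07 without CSD 2, 1.23 without HC 1 and 1.28 without HC 2.

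**Figure D2:**
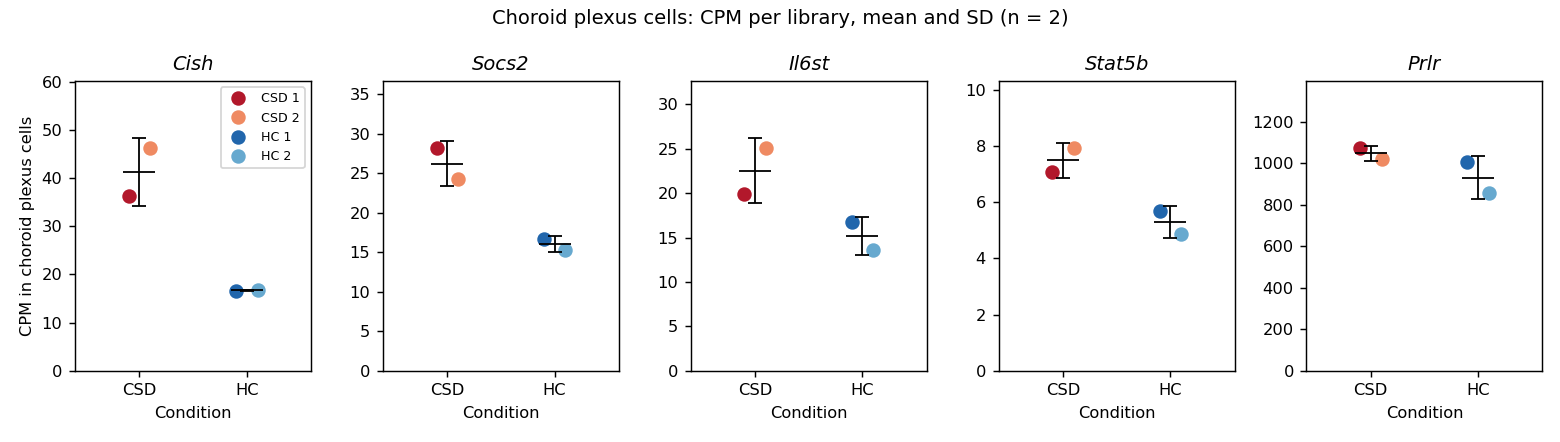
CPM in choroid plexus cells for 5 genes, on axes that start at 0; each point is 1 library, and the bar with whiskers is the mean and SD of 2 libraries. Cish separates the conditions most (36.3 and 46.3 against 16.6 and 16.8 CPM), while Prlr differs little.

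Socs2 was at 28.2 (CSD 1), 24.2 (CSD 2), 16.7 (HC 1) and 15.3 CPM (HC 2) in choroid plexus cells. The conditions did not overlap, and the log2 fold change was 0.71 ± 0.197 (95% interval 0.30 to 1.12). Il6st was at 19.97, 25.1, 16.7 and 13.7 CPM in the same order of libraries, again without overlap, with a log2 fold change of 0.51 ± 0.212. Stat5b was at 7.06, 7.93, 5.70 and 4.88 CPM, with 0.44 ± 0.289. In all, 5 of the 10 genes were higher in both CSD libraries than in both HC libraries and none was lower in both, where 16.1% of all genes tested in this class were higher in both and 12.3% lower in both. The median log2 fold change was 0.11 over the 10 genes and -5.2e-04 over all genes tested.

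The receptor itself differed by less than the standard error of its fold change. The log2 fold change of Prlr in choroid plexus cells was 0.15 ± 0.171 with a 95% interval of -0.20 to 0.50, although both CSD libraries were above both HC libraries. The other genes overlapped between the conditions in this class. Stat3 was at 13.8, 13.2, 16.2 and 11.4 CPM, Stat5a at 2.93, 2.64, 3.96 and 2.89, and Il6ra at 10.3, 10.1, 12.5 and 8.21. For Socs3 (10.3, 23.8, 9.53 and 18.4 CPM) and Socs1 (2.26, 3.52, 2.97 and 2.44 CPM) the libraries of 1 condition lay farther apart than the means of the conditions.

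**Figure D3:**
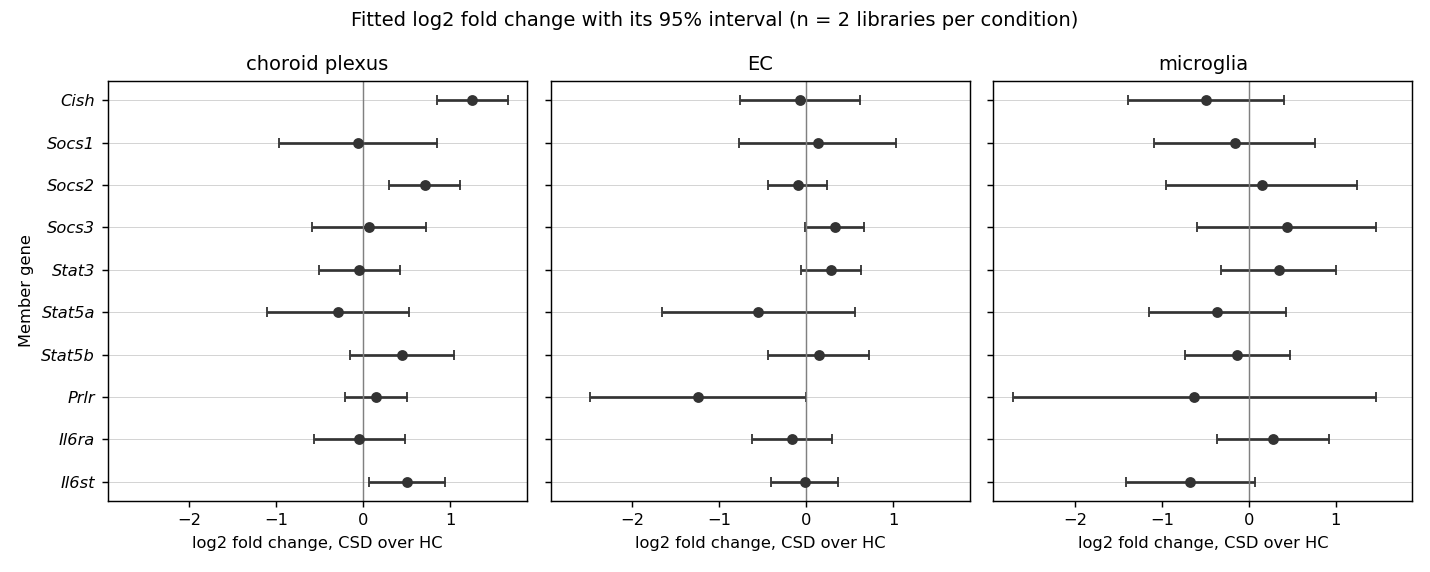
Fitted log2 fold change of CSD over HC for the 10 genes in choroid plexus cells, EC and microglia; points are the fitted values, and whiskers their 95% intervals. Cish (1.25), Socs2 and Il6st in choroid plexus cells have intervals that lie above 0, and that of Prlr in EC ends just below 0.

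Cish was also read by the depth of the choroid plexus cells, in which the libraries differed. In choroid plexus cells with at least 15000 UMIs (250, 55, 228 and 221 cells in CSD 1, CSD 2, HC 1 and HC 2), Cish was at 36.5, 47.2, 16.4 and 20.1 CPM, and the log2 fold change was 1.16 ± 0.212. The shallower cells held few Cish UMIs, and the conditions overlapped there. Between 5000 and 15000 UMIs Cish was at 35.6, 16.1, 16.9 and 13.5 CPM, from 31, 1, 3 and 57 UMIs. Under 5000 UMIs it was at 29.997, 43.8, 39.1 and 10.9 CPM, from 2, 2, 3 and 3 UMIs. When each cell was thinned to 5000 UMIs, which left out 42, 31, 44 and 120 shallower cells, 18.5% of the cells of CSD 1 held a Cish UMI (exact 95% binomial interval 14.4 to 23.1%) and 21.3% of CSD 2 (11.9 to 33.7%). In HC 1 the share was 5.69% (3.15 to 9.36%) and in HC 2 7.79% (5.80 to 10.2%). The intervals of the CSD libraries lay above those of the HC libraries, but they take the cell as the unit and cover counting error alone. They leave out the spread between pools of mice, and Cish was chosen with this contrast known, so their order is no test of CSD against HC. Without thinning the shares were 45.2, 50.0, 35.2 and 18.2%. Prlr was found in 91.8 to 98.5% of the thinned cells of every library, and Socs2 in 11.4 (CSD 1), 16.4 (CSD 2), 7.72 (HC 1) and 7.14% (HC 2).

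Cish did not follow the amount of Prlr in a cell in 1 direction. Cells with more thinned Prlr UMIs than the median of their library held a mean of 0.166 Cish UMIs in CSD 1 and the other cells 0.218, while these means were 0.250 and 0.182 in CSD 2, 0.0755 and 0.0429 in HC 1, and 0.0996 and 0.0648 in HC 2. These means rest on 6 to 38 Cish UMIs in each set of cells. Socs2 was found in 8.33% of the thinned CSD 1 cells with a Cish UMI and in 12.1% of those without. These shares were 15.4 and 16.7% in CSD 2, 14.3 and 7.33% in HC 1, and 6.25 and 7.22% in HC 2, with 2 to 5 cells holding both genes in a library, too few to read a difference from.

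Several values moved with the Cish difference, and their part in it was not tested. Hspa1a and Hspa1b, heat shock genes that are near-identical copies, were higher in the choroid plexus cells of both CSD libraries, with Hspa1a at 58.2, 69.6, 26.7 and 39.4 CPM and Hspa1b at 19.97, 21.6, 9.16 and 8.77 CPM (log2 fold change of Hspa1b 1.17 ± 0.214, adjusted p = 0.0311 with edgeR). Choroid plexus cells without any UMI of these 2 genes numbered 178, 48, 178 and 549. Cish was at 32.2, 41.4, 15.2 and 18.2 CPM in them, with a log2 fold change of 1.02 ± 0.247. Holding no such UMI also depends on the depth of a cell. The set is therefore not matched for depth and does not mark cells free of a heat shock response. The sum of the whole list of 15 immediate-early and dissociation genes overlapped between the conditions in this class. It was 3288 (CSD 1), 4986 (CSD 2), 3238 (HC 1) and 3879 CPM (HC 2). Of the 15, 3 were higher in both CSD libraries, none was lower in both and 1 was called. Their median log2 fold change was 0.23. The 9 genes called in this class were all higher in CSD. Beside Cish and Hspa1b they were Nab2 (log2 fold change 1.59), Plk3 (1.34), Hsph1 (0.85), Phlda3 (0.94), 2810474O19Rik (0.98), Gm26648 (1.38) and Gm49016 (5.08). The 6 markers of T cells, where the mean of Cish was highest from few cells, summed to 0 CPM in the choroid plexus cells of CSD 1, CSD 2 and HC 2. In those of HC 1 they summed to 1.11 CPM. Free RNA, measured in barcodes with at most 100 UMIs, held Cish at 9.61, 4.57, 7.80 and 7.76 CPM, lower than in choroid plexus cells of the same library, and the conditions overlapped there.

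In EC and microglia, the other classes in which it passed the filter on low counts, Cish was not higher in CSD. EC held 13.7 (CSD 1), 11.1 (CSD 2), 14.4 (HC 1) and 12.9 CPM (HC 2), with a log2 fold change of -0.07 ± 0.299 and a 95% interval of -0.76 to 0.62. Microglia held 7.10, 4.78, 8.57 and 8.59 CPM, with both CSD libraries lower and a log2 fold change of -0.49 ± 0.379. At these levels 1.38 to 2.40% of EC held a Cish UMI at median depths of 869 to 1465 UMIs, and 1.27 to 2.17% of microglia at 1869 to 4903 UMIs, and the free RNA expected in these classes from their choroid plexus markers would give 0.0976 to 0.613 CPM of Cish in microglia and 0.481 to 0.831 CPM in EC. The difference between classes in the effect of CSD on Cish was not tested.

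In EC 2 of the 10 genes, Socs3 and Stat3, were higher in both CSD libraries. Socs3 was at 187 (CSD 1), 221 (CSD 2), 172 (HC 1) and 168 CPM (HC 2), with a log2 fold change of 0.33 ± 0.147 and a 95% interval of -0.01 to 0.67. Stat3 was at 99.0, 110.1, 94.6 and 85.0 CPM, with 0.29 ± 0.149 (-0.06 to 0.63). Both differences were small, and 14.0% of all genes tested in EC were higher in both CSD libraries. Socs2, Stat5a and Prlr were lower in both CSD libraries, as were 25% of the genes tested, and Il6st (79.0, 103, 93.0 and 100.5 CPM), Il6ra, Cish, Socs1 and Stat5b overlapped. The immediate-early and dissociation list was also higher in EC of CSD, at 15933 and 18182 CPM against 12277 and 13452 CPM, with 0 of 15 genes called and 10 under an unadjusted p of 0.05, all higher in CSD. Its part in the Socs3 and Stat3 differences was not tested.

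In microglia Il6st was at 36.1 (CSD 1), 57.4 (CSD 2), 71.4 (HC 1) and 83.0 CPM (HC 2), lower in both CSD libraries, with a log2 fold change of -0.67 ± 0.311 (95% interval -1.42 to 0.07). It was -0.31 without CSD 1 and -1.13 without CSD 2. Socs3 was at 669, 1348, 661 and 892 CPM, so that CSD 2 stood above the other libraries, and its log2 fold change of 0.44 turned to -0.26 without CSD 2. Stat3 was at 222, 219, 218 and 142 CPM, where HC 2 was the low library. Il6ra (321, 231, 267 and 199.6 CPM) overlapped. Cish and Stat5a were lower and Stat3 higher in both CSD libraries, beside shares of 13.4% lower and 7.85% higher among all genes tested in microglia.

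The other classes held fewer UMIs and wider intervals. In pericytes Socs3 was at 313 (CSD 1), 278 (CSD 2), 166 (HC 1) and 206 CPM (HC 2), from 36, 75, 20 and 43 UMIs, with a log2 fold change of 0.64 ± 0.292 (95% interval 0.01 to 1.27), and 15.5% of genes tested there were higher and 17.1% lower in both CSD libraries. Il6st was at 130.4, 96.4, 74.8 and 81.6 CPM in the same cells (0.47 ± 0.370). In ependymal cells the order of Socs3 was the other way, with 544, 389, 725 and 579.5 CPM and a log2 fold change of -0.54 ± 0.239, beside 12.9% of genes tested that were lower in both CSD libraries and 17.5% that were higher. Il6st was at 64.7, 157, 61.3 and 45.4 CPM there, and its log2 fold change of 1.003 ± 0.409 fell to 0.18 without CSD 2. In SMC, Socs3 was at 596, 971, 570 and 904 CPM and overlapped.

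Prlr outside the choroid plexus was lower in both CSD libraries in EC and SMC, and choroid plexus markers were lower in the same libraries and classes. EC held 12.2 (CSD 1), 3.12 (CSD 2), 22.6 (HC 1) and 14.9 CPM (HC 2), from 25, 7, 44 and 29 UMIs, with a log2 fold change of -1.24 ± 0.536. SMC held 22.2, 7.23, 33.8 and 30.6 CPM (-1.04 ± 0.449) and microglia 17.3, 0.683, 13.1 and 15.1 CPM. CSD 2 was lowest in each class. The 9 choroid plexus markers were lowest there as well, with 138 CPM in EC of CSD 2 against 421, 444 and 582 CPM in those of CSD 1, HC 1 and HC 2, and 28.0 CPM in microglia against 356, 282 and 373 CPM. In SMC they were at 176, 34.3, 513 and 495 CPM, and 16.5% of genes tested in SMC were higher and 13.7% lower in both CSD libraries. Their part in the Prlr differences was not tested.

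**Figure D4:**
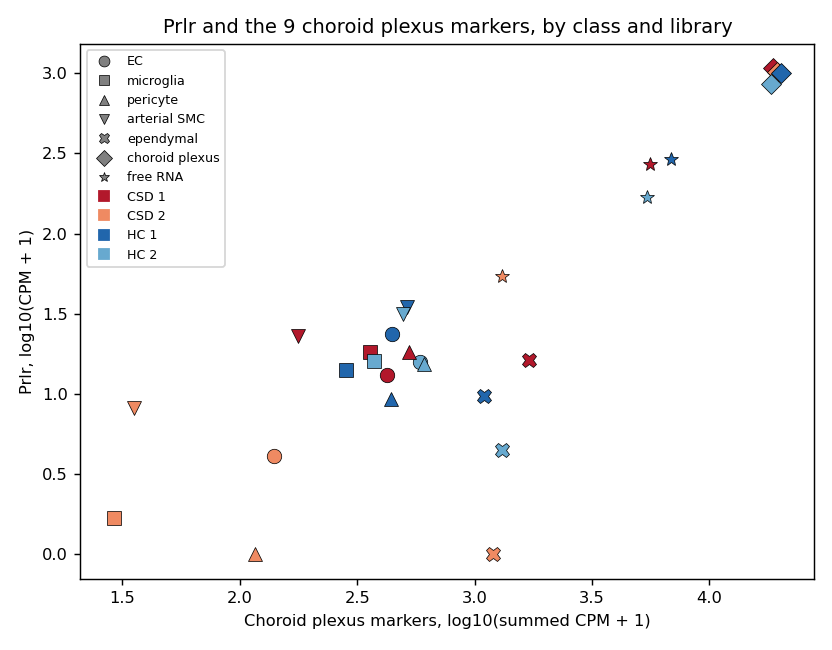
Prlr against the summed level of the 9 choroid plexus markers, both as log10(CPM + 1); each symbol is a class, or the free RNA of barcodes with at most 100 UMIs, in 1 library, and colours mark the libraries. Choroid plexus cells sit at the top right and free RNA below them, CSD 2 (orange) has the lowest Prlr within each of the other symbols drawn, and ependymal cells hold little Prlr for their marker level.

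Free RNA held Prlr at 270.1 (CSD 1), 53.1 (CSD 2), 289 (HC 1) and 167 CPM (HC 2). Scaled by the choroid plexus markers of each class, it would give 20.4, 5.60, 18.8 and 17.9 CPM of Prlr in EC, above the level measured there in CSD 1, CSD 2 and HC 2 and below it in HC 1. Per 100 UMIs of these markers, Prlr had 4.70 to 5.73 UMIs in choroid plexus cells, 3.07 to 4.84 in free RNA, 2.26 to 5.09 in EC and 2.44 to 4.85 in microglia. In SMC it had 12.6, 21.1, 6.59 and 6.19, more than in the free RNA or the choroid plexus cells of the same library, from 18, 4, 23 and 14 Prlr UMIs. Without CSD 2 the log2 fold change was -0.53 in EC and -0.56 in SMC, and 0.26 in microglia. Ependymal cells, the neighbours of the choroid plexus epithelium, held part of the marker list (1095 to 1702 CPM) and Prlr from 0 to 15.2 CPM.

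The rest of the pathway was read from 9 lists of 96 other genes, leaving out the 10, with the same test. These lists were also chosen with earlier results of these data known. Their counts, medians and p-values below are therefore a description and no independent support for a signal. In choroid plexus cells 57 of them were tested and 0 passed the limit with edgeR or with DESeq2, while 5 were under an unadjusted p of 0.05, all higher in CSD, as were 3.31% of all genes in either direction. Of the kinases, Jak1, Jak2, Jak3 and Tyk2, 3 were tested there with a median log2 fold change of 0.09. Among the 3 other STAT genes tested, 1 was under an unadjusted p of 0.05, Stat6, the transducer of interleukin-4, at 7.59, 8.81, 4.71 and 3.66 CPM (0.91 ± 0.299), short of the limit (edgeR, adjusted p = 1). The STAT5 response list, to which Cish itself would belong (Bcl6, Ccnd1, Ccnd2, Bcl2l1, Bcl2, Igf1, Gadd45g, Pim2, Csn2 and Xbp1), had 9 genes tested, 0 under an unadjusted p of 0.05 and a median log2 fold change of -0.0031, against -5.2e-04 over all genes. The STAT3 response list had 8 tested and a median of 0.46, with Cebpb, Cebpd and Pim3 under an unadjusted p of 0.05. All 14 other inhibitors were tested, with 0 under an unadjusted p of 0.05 and a median of -0.0019. The other gp130 family receptors, the gp130 family ligands and the other cytokine and hormone receptors had 2, 1 and 10 genes tested there, and of these 1 receptor, Ifnar2, was under an unadjusted p of 0.05.

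In EC 63 of the 96 genes were tested and 1 was called, with 15 under an unadjusted p of 0.05, of which 13 were higher in CSD, where 7.52% of all genes were under it. DESeq2 called 4. The called gene was Lcn2, an iron-binding acute-phase protein of the STAT3 response list, at 74.6 (CSD 1), 108 (CSD 2), 3.08 (HC 1) and 1.55 CPM (HC 2). Both CSD libraries were far above both HC libraries, with a log2 fold change of 5.33 ± 0.347 (edgeR, adjusted p = 0.00405). EC of HC 1 and HC 2 held 1945576 and 1940714 UMIs in all, so these HC levels rest on few UMIs. They lay near the floor of 3 UMIs per library, and the size of the fold change is poorly determined. Lcn2 passed the limit in every alternative that kept all libraries, with adjusted p of 5.7e-17 (DESeq2) to 0.00405 (edgeR). With 1 library left out its log2 fold change was 4.91 to 5.92. Such fits leave a lone library in 1 condition and cannot measure the spread between its pools.

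Of the 12 STAT3 response genes tested in EC, 1 was called, 8 were under an unadjusted p of 0.05 with CSD higher and 1, Gfap, with CSD lower, and the median log2 fold change was 0.66 against 0.0076 over all genes. Among those short of the limit, Cebpd was at 293, 466, 132 and 169.5 CPM (1.40 ± 0.234, adjusted p = 0.123 with edgeR) and Lrg1 at 9.26, 10.7, 1.54 and 1.55 CPM (2.71 ± 0.506, adjusted p = 0.165 with edgeR). Lrg1 in HC lay near the floor of 3 UMIs per library, so the size of its fold change is poorly determined. Several genes of the STAT3 response list, Junb among them, also respond to dissociation. The list was chosen with earlier results of these data known, so its count and median are no test of STAT3 signalling in EC. Osmr, the oncostatin M receptor that pairs with gp130, was at 91.7, 108, 67.3 and 65.4 CPM (0.66 ± 0.152, adjusted p = 0.266 with edgeR). The kinase gene Jak2 was at 50.2, 46.3, 35.5 and 35.6 CPM (0.51 ± 0.168, adjusted p = 0.49 with edgeR). The other STAT genes and the other inhibitors had 3 and 13 tested in EC with 0 under an unadjusted p of 0.05, the STAT5 response list 7 with 2 (Bcl2 and Bcl2l1, both higher in CSD), and the other cytokine and hormone receptors 12 with 2 (Il13ra1 higher, Il10rb lower). No gp130 family ligand passed the filter in EC, so that ligands of gp130 could not be compared in EC at this depth.

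**Figure D5:**
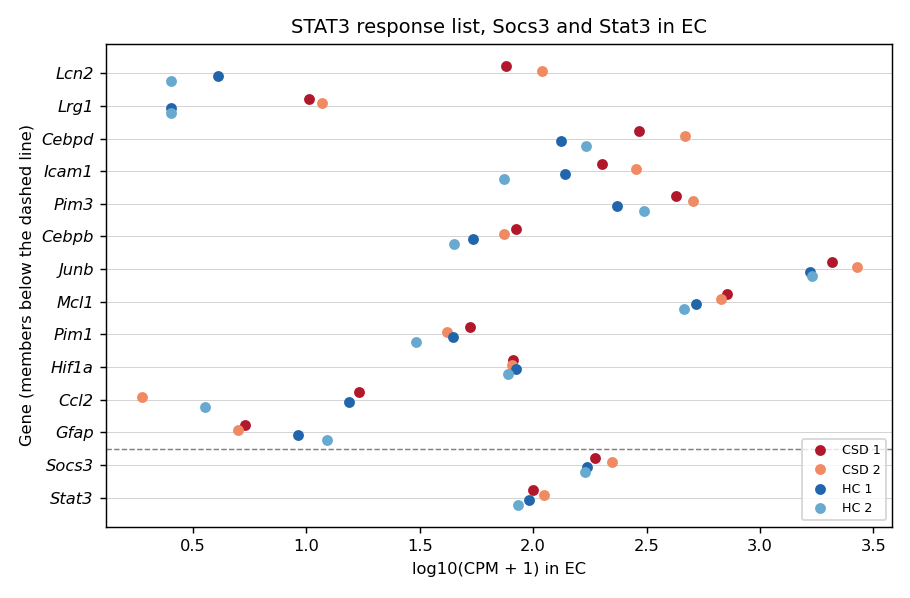
log10(CPM + 1) in EC for the 12 tested genes of the STAT3 response list, ordered by log2 fold change, and for Socs3 and Stat3 below the dashed line; each point is 1 library. Lcn2, Lrg1 and Cebpd separate CSD (red and orange) from HC (blue) widely, Socs3 and Stat3 narrowly, and Hif1a and Ccl2 overlap.

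In pericytes 22 pathway genes were tested, 1 was called and 2 were under an unadjusted p of 0.05, as were 4.47% of all genes. Cebpd, a transcription factor of the acute-phase response in the STAT3 list, was at 713 (CSD 1), 856 (CSD 2), 233 (HC 1) and 254 CPM (HC 2), with a log2 fold change of 1.70 ± 0.248 (edgeR, adjusted p = 0.0306). Leaving out HC 1 gave 1.602 and lost the call, and the alternatives that kept every library kept it. In microglia 70 were tested, 0 called by either tool and 2 under an unadjusted p of 0.05, both higher in CSD, where 1.21% of all genes were under it. These were Cebpb and Socs6, and Socs6, another member of the inhibitor family, was at 47.2, 41.3, 33.5 and 28.6 CPM (0.55 ± 0.207, adjusted p = 1 with edgeR). In SMC, ependymal cells and astrocytes 43, 24 and 2 were tested and 0 called by edgeR or DESeq2, with 2, 2 and 1 under an unadjusted p of 0.05, where the shares over all genes were 3.12, 3.0 and 2.14%. The immediate-early and dissociation list had 3 genes called in astrocytes, Fos, Fosb and Egr1, all lower in CSD, in a class where none of the 10 genes could be tested and where 14.2% of genes were higher and 7.33% lower in both CSD libraries.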

How the data were processed

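Per the labels and the study's methods, single-cell cDNA libraries were made from CD31-captured cells with 10x Genomics 3′ v3.1 chemistry. The authors deposited raw UMI counts per gene and barcode for each of the 4 libraries, before cell calling or normalization. The submitters' processing notes name Cell Ranger 4.0 with GRCm38 (mm10), and the matrix headers name version 3.1.0. No column of another sample was found. All values were computed from these counts with Python 3.11.15 and R 4.3.3.

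Cells were barcodes with at least 500 UMIs, 250 genes and at most 25% mitochondrial UMIs. A cell met a class with at least 3 UMIs from at least 2 of its markers, at least 2 times the number expected from free RNA (barcodes with at most 100 UMIs) and a Poisson p under 0.001. Cells whose leading class was under 2 times the next were set aside as mixed, and no other doublet filter was used. These limits were set after the marker counts of the cells had been examined. Counts were summed per library and class and compared in the 7 classes with at least 20 cells in every library, with edgeR 4.0.16 (filterByExpr, TMM, glmQLFit, glmQLFTest, two-sided, Benjamini-Hochberg over the genes tested in a class). DESeq2 1.42.0 was an alternative, beside RLE size factors, no filter on low counts, at least 1000 UMIs per cell, at least 0.8 log10 genes per log10 UMIs, cells of 1 class alone, a replicate block and each library left out. A library is the unit, with 2 pools of mice per condition. The p-values set a difference against a spread between libraries that the fits estimate partly from the other genes of the class. The binomial and Poisson intervals and the floors cover counting error alone. Those of log2 fold changes come from the edgeR fit and include its estimate of the spread between libraries.

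The 10 genes and the pathway lists were chosen with earlier results of these data known. The lists are Janus kinases, other STAT factors, other inhibitors, other gp130 family receptors, gp130 family ligands, other cytokine and hormone receptors, STAT3 response, STAT5 response, and immediate-early and dissociation. Results of 1 further list, counted in the pathway totals, are not reported here. Named beside the 10 were the 3 genes most correlated with each, where described, and up to 5 called pathway genes per class and direction. All genes called in choroid plexus cells were named too. Pathway genes named with values short of the limit, and Hspa1a, Hspa1b and Tmem252, were chosen after their values were seen. The fit was tested on simulated data. Protein sequences were not used here, and Socs2 had no promoter entry.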

Additional observations from a re-analysis of the deposited data

Results flagged for a closer look

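Among the genes and classes that passed the filter on low counts, 5 of the 10 genes had both CSD libraries above both HC libraries in 1 class and below them in another, and in no case was the difference between the classes tested. Cish had a log2 fold change (CSD over HC) of 1.25 in choroid plexus cells and -0.49 in microglia. Socs2 had 0.71 in choroid plexus cells and -0.10 in EC. Socs3 had 0.33 in EC and 0.64 in pericytes against -0.54 in ependymal cells. Prlr had 0.15 in choroid plexus cells against -1.24 in EC and -1.04 in SMC, where the choroid plexus markers were lower in both CSD libraries as well. Il6st had 0.51 in choroid plexus cells, 0.47 in pericytes and 1.003 in ependymal cells against -0.67 in microglia. With 2 libraries per condition, between 7.33 and 25% of all genes tested in a class lay on 1 given side in both CSD libraries. The share of all genes with opposite orders in 2 classes was not computed, so nothing is read from the 5 of 10.

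Free RNA was read from barcodes of 100 UMIs or fewer, which no comparison used. There Stat3 was at 31.0 (CSD 1), 35.1 (CSD 2), 28.3 (HC 1) and 21.7 CPM (HC 2), with means of 33.0 in CSD and 25 in HC. Socs1 was lower there in both CSD libraries, at 2.40, 1.71, 5.36 and 2.59 CPM, from 9, 6, 22 and 10 UMIs. The other genes of the 10 overlapped. The share of all genes that do not overlap in these barcodes was not computed, so nothing is read from these orders.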

How the results depend on the processing

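The Cish difference in choroid plexus cells had a log2 fold change of 1.16 to 1.27 in 8 of the 9 alternatives that kept every library and 1.02 in the other, cells without a UMI of Hspa1a or Hspa1b, a set chosen after seeing the data, as was the set with at least 15000 UMIs. Cish passed the limit in 8 of these 9 alternatives and fell short of it in the cells without a UMI of Hspa1a or Hspa1b. With 1 library left out the log2 fold change was 1.07 to 1.47, and the call was lost when either HC library was left out. These values describe the difference Cish was chosen for and are no independent support for it. The log2 fold changes of the 10 genes elsewhere kept their sign in 300 of 309 values from the other alternatives and in 137 of 168 with 1 library left out. Without CSD 1 the log2 fold change of Prlr in EC was -2.53 and that of Il6st in ependymal cells 1.45. Levels of the 10 genes were checked in EC, microglia and choroid plexus cells alone. They moved by more than the spread between libraries in 6 of 90 values from alternatives that kept every library. Socs3 in choroid plexus cells was among them. Its mean fell from 15.5 to 6.32 ± 6.55 CPM (SD, n = 4 libraries) when the free RNA expected from EC and microglial markers was subtracted.

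The number of called genes depended strongly on the settings, and the cause was not tested. Without the filter on low counts it was 140.0 in EC, 6 in microglia, 34 in choroid plexus cells, 3 in pericytes, 19 in SMC and 12 in ependymal cells, and of pathway genes 6 in EC, 1 in choroid plexus cells and 2 in pericytes. DESeq2 gave 55 in EC, 1 in microglia, 4 in choroid plexus cells and 3 in astrocytes, and 4 pathway genes in EC. Cells of 1 class alone gave 14 in EC and 1 pathway gene in astrocytes, and at least 1000 UMIs per cell gave 3 in pericytes with 2 pathway genes, and 1 pathway gene in astrocytes. Choroid plexus cells without a UMI of Hspa1a or Hspa1b gave 0. With 1 library left out the count ran from 2 to 526 in EC, 0 to 8 in microglia, 0 to 56 in choroid plexus cells, 2 to 25 in pericytes, 1 to 20 in SMC, 1 to 10 in astrocytes and 0 to 38 in ependymal cells, and for pathway genes from 1 to 14 in EC, 0 to 4 in choroid plexus cells, 0 to 3 in pericytes, and 0 to 1 in astrocytes and ependymal cells. Leaving out CSD 1, then CSD 2, gave 526 and 303 in EC, 56 and 21 in choroid plexus cells, 25 and 16 in pericytes, 20 and 12 in SMC, 38 and 34 in ependymal cells, 8 and 2 in microglia, and 10 and 1 in astrocytes. Leaving out HC 1, then HC 2, gave 8 and 2 in EC and 0 and 0 in choroid plexus cells. In these fits the lone library of a condition is assumed to vary like the pair of the other.

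The labels give both conditions the numbers 1 and 2 and no source pairs them. Deviations of equally numbered libraries correlated at 0.019 to 0.39 over the 7 classes, with 2 pairs. With a replicate block 104 genes were called in EC, 20 in microglia, 28 in choroid plexus cells and 4 in pericytes, and of pathway genes 6 in EC, 2 in pericytes and 1 in astrocytes. Genes at a few CPM, Socs1 and Stat5a among them, rest on 6 to 61 UMIs per library in choroid plexus cells, EC and microglia, so that small differences were not detectable.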

Other observations

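Some classes were too small for a comparison and are given as values over all 4 libraries, with exact 95% Poisson intervals that cover counting error alone. Border-associated macrophages (116 cells, 5 of them from CSD 2) held Il6ra at 203 CPM (153 to 264), within the range of the microglial libraries, and Socs3 at 95.8 CPM (62.6 to 140.4), far below it. Their Il6st was at 22.1 CPM (8.11 to 48.1) and no Cish UMI was found, which allows up to 13.6 CPM. Monocytes (35 cells) held Socs3 at 274 CPM (196 to 371), Stat3 at 147 CPM (92.0 to 222) and Stat5a at 46.7 CPM (18.8 to 96.2). Oligodendrocytes (35 cells) held Socs3 at 279 CPM (204 to 374). Cells with erythroid markers (23) held Prlr at 247 CPM (175 to 339), and their barcodes also held choroid plexus markers at 3859 CPM, EC markers at 4548 CPM and pericyte markers at 2293 CPM. The part of these other cells in the Prlr value was not tested.

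The choroid plexus held 78.9% (CSD 1), 67.3% (CSD 2), 63.2% (HC 1) and 69.9% (HC 2) of the Cish UMIs of all cells, beside 48.0, 22.9, 52.1 and 57.5% of all UMIs. These are shares of the UMIs in cells, not of all UMIs of a library.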
